A study of Homo sapiens with 24 samples.

Results

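Solute carriers are the membrane proteins that move amino acids, sugars, ions, metals, nucleotides and metabolites across the plasma membrane and the membranes of organelles. Their mRNAs were taken from a table of Ago2 binding sites in 293S cells, a human embryonic kidney line, as every peak whose annotated gene name begins with SLC, a family number and a letter. The rule found 319 of 24041 peaks, in 99 of 6088 genes and 32 carrier families. Of these, 49 peaks in 14 genes belong to the mitochondrial carriers (SLC25) and 270 peaks in 85 genes to all other families. Those families sit mainly in the plasma membrane, the endoplasmic reticulum, the Golgi apparatus, lysosomes and other vesicles. A single name that fits the rule is not a carrier: SLC2A4RG encodes a transcription factor, and it supplied 11 of the peaks.

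Ago2 is an Argonaute protein, which a miRNA guides to its target RNAs, and in CLIP it is crosslinked to RNA and immunoprecipitated with an anti-Ago2 antibody. The study compared untreated 293S cells with cells that received sodium arsenite at 1 mM over 30 min. Both arms came from the same line, grown as an adherent monolayer, and the labels name no genetic change in either. Its 24 samples formed 6 groups of 4 replicates (mRNA CLIP, RNA-seq and a further CLIP fraction called the LO band, each untreated and with arsenite), and this account rests on the mRNA CLIP peaks and on the miRNA abundances of the LO band.

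Each peak carries 2 values made by the authors over all replicates together: the log average of normalized CLIP signal, and its log ratio of arsenite over untreated. The log base and the normalizer are not stated, so the log ratios were not turned into folds, and neither replicate error nor depth is known for them. A log ratio above 0 means more normalized signal with arsenite, and the place of 0 depends on the authors' scaling. Counts and medians of groups are therefore read beside those of all peaks or genes, and no difference between groups of peaks was tested.

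Membrane transport fixes which nutrients reach a cell under stress. Arsenite binds thiols and blocks translation initiation, and the best known transport answers to such stress are the uptake of cystine for glutathione and the amino acid uptake driven by the transcription factor ATF4. A miRNA finds its targets mainly through its seed, bases 2 to 8, which pairs with a complementary 7-nucleotide site, most often in the 3' untranslated region (3'UTR).

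The deposited table lists, for each peak, matches to the seeds of 50 miRNA families, and 42 of these had at least 1 solute carrier peak. The 11 families with 5 or more such peaks are shown by their most abundant Ago2-bound member, since these are the seeds that the results below turn on. Sequences are the mature forms in RefSeq (build GRCh38.p14), with the seed in capitals, and all family members that matched a RefSeq name (46 of 53) had the seed of the member shown.
miR-16-5p: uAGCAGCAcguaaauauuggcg
miR-103a-3p: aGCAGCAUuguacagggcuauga
miR-19b-3p: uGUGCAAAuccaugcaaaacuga
miR-301a-3p: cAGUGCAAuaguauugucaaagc
miR-92a-3p: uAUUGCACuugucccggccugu
miR-17-5p: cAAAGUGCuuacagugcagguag
miR-17-3p: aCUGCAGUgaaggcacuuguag
let-7a-5p: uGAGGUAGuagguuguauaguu
miR-196b-5p: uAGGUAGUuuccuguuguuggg
miR-29b-3p: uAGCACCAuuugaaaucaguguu
miR-30e-5p: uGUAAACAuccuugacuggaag
Some of these seeds overlap by shifted register. The miR-19 site UUUGCAC and the miR-130 site UUGCACU can lie in the same 8 letters, and so can the miR-103 site AUGCUGC and the miR-15/16 site UGCUGCU. The let-7 site CUACCUC and the miR-196 site ACUACCU can overlap in the same way. Among solute carrier peaks, 6 matched both miR-19 and miR-130, 4 both miR-15/16 and miR-103, and 2 both let-7 and miR-196. The counts of these families are therefore not separate sets of peaks.

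Most solute carrier peaks had more normalized Ago2 signal with arsenite, as did most peaks of the whole table. Of the 319 peaks, 246 (77.1%, Wilson 95% interval 72.2 to 81.4%) had a log ratio above 0, against 70.3% of all peaks. The median was 0.78, with quartiles of 0.04 and 1.45, beside a median of 0.65 over all peaks. The interval covers counting error over peaks only, and it is too narrow because peaks of a gene are not independent: 36 solute carrier peaks overlap the one listed before them and 10 share both of their values with another peak of the same gene.

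Each gene was also represented by its peak of the highest log average. Log ratios lay above 0 in 77 of 99 solute carrier genes (77.8%), against 79.9% of all genes, and the medians were 0.95 and 1.10. With the median over all peaks of a gene, 81 of 99 were above 0 (81.8%), against 81.3% of all genes, and the medians were 0.80 and 0.91. The shares lay close to those of the whole table, and the solute carrier median was the lower by either measure.

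The ends of the distribution were also near the background. A log ratio above 2 was listed for 19 of 99 genes (19.2%), where 22.1% of all genes had one. A log ratio below -1 was listed for 5 genes (5.05%), where 4.52% of all genes had one. The plot of genes by substrate class shows how widely carriers of the same kind differed.

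**Figure D1:**
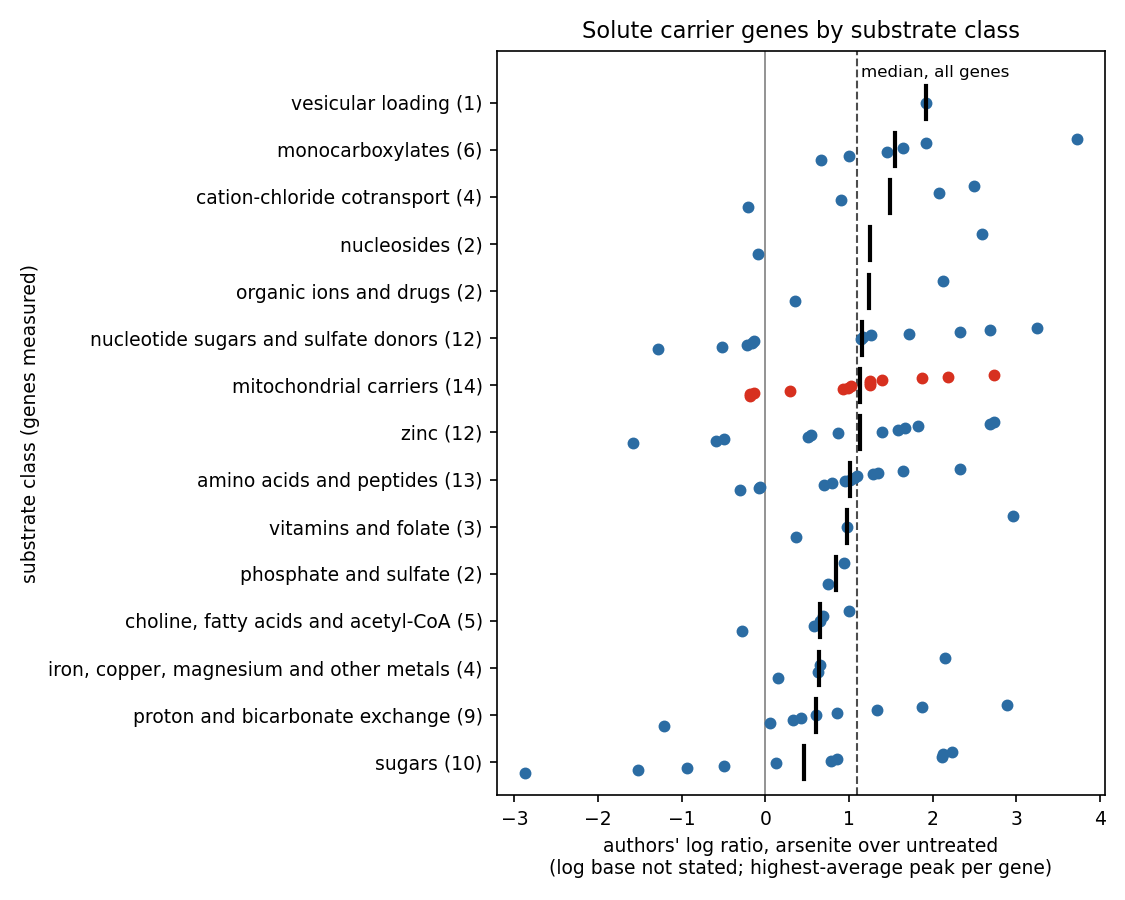
Authors' log ratio of normalized CLIP signal (arsenite over untreated, log base not stated) at the highest-average peak of each of the 99 solute carrier genes, in 15 substrate classes ordered by median. Each point is 1 gene, red for SLC25 and blue for the others, short bars are class medians and the dashed line is the median of all 6088 genes, 1.10; the monocarboxylate carriers all lie above 0 and the sugar carriers run from -2.87 to 2.23.

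The mitochondrial carriers form the largest solute carrier family and sit in the inner mitochondrial membrane, where they exchange nucleotides, phosphate, amino acids and the intermediates of the citric acid cycle. At the highest-average peak, 11 of the 14 SLC25 genes lay above 0, with a median log ratio of 1.13 and a range from -0.19 to 2.73. Among the other solute carriers 66 of 85 genes were above 0, with a median of 0.91 and a range from -2.87 to 3.73. These shares were 78.6% and 77.6%, near the 79.9% of all genes, whose median was 1.10. The medians over all peaks of a gene were 1.01 for SLC25 and 0.74 for the others, beside 0.91 over all genes. With only the highest-average 3'UTR peak of each gene the order turned, to 0.94 over 12 SLC25 genes and 1.00 over 61 others.

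The highest SLC25 log ratios belonged to carriers of phosphate, aspartate and adenine nucleotides. SLC25A3, the mitochondrial phosphate carrier that supplies ATP synthase, had 2.73 at its 3'UTR peak (build hg19, chr12:98995333-98995375; coordinates are as deposited, and their start base, 0 or 1, is not known). The CDS (coding sequence) peaks of SLC25A3, from 5' to 3', had 2.42, -0.03, 2.27, 2.28, 2.36, 2.87 and 3.09. High values thus ran through the whole coding sequence, with 1 peak of 8 near 0, and 2 of the 8 had a listed seed, for miR-101 and for the miR-181 family. SLC25A12 and SLC25A13, the pair of aspartate-glutamate carriers of the malate-aspartate shuttle, had 2.19 at a 3'UTR peak with no listed seed and 1.25 at a CDS peak with a let-7 seed, each gene having 1 peak. SLC25A5, the ADP/ATP carrier ANT2, had 1.88 at its highest-average peak, whereas its other CDS peaks had -1.13, 0.85 and -0.24, and its median was 0.30. The single high peak of SLC25A5 therefore did not stand for its mRNA.

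SLC25A36 and SLC25A39 had the most SLC25 peaks beside SLC25A3. In SLC25A36, a pyrimidine nucleotide carrier, the 2 5'UTR peaks had -0.08 and 0.14, the CDS peak 2.25 and the 6 3'UTR peaks between 0.85 and 2.32. The 5'UTR values of SLC25A36 thus lay below each of its other values. All 8 peaks of SLC25A39, needed for glutathione import into mitochondria, were above 0, from 0.13 to 1.65, with a median of 1.00. SLC25A16 had 1.39 and 1.93 at 2 overlapping 3'UTR peaks, both with a miR-25/92 seed, and SLC25A28, the iron carrier mitoferrin 2, had 0.93 at a CDS peak with a miR-17 seed.

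At the highest-average peaks of SLC25 genes negative values were small, though another peak of SLC25A5 had -1.13. SLC25A10, the dicarboxylate carrier, had -0.19 at its 5'UTR peak and a median of 0.30 over 3 peaks. The oxoglutarate carrier SLC25A11 had -0.19 at its only peak, and SLC25A32, which carries folate and FAD, -0.13 at a 3'UTR peak with a let-7 seed. No SLC25 gene had a value below -1 at its highest-average peak, but 14 genes are too few to set against a background of 4.52%. The SLC25 peaks lay more often in CDS (46.9%) than those of the other carriers (36.3%), and seed matches were met at 36.7% and 35.6%.

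Amino acid carriers held the most peaks, 95 in 13 genes, and 10 of the 13 genes were above 0 (76.9%, against 79.9% of all genes), with a median of 1.01 beside 1.10 over all genes. The genes linked to ATF4 were described as a list chosen with earlier results of these data known. Of its 12 members 9 were in the table, and 7 of these were above 0, with a median of 1.05. SLC7A11, the cystine carrier of the cystine-glutamate antiporter, had 2.39, 2.05 and 0.79 at its 3 3'UTR peaks from 5' to 3'. Its partner SLC3A2, the heavy chain shared by several amino acid exchangers, had 2.03, 2.82 and 1.14 at CDS peaks and 0.95 and 0.66 at 3'UTR peaks, so its coding sequence lay above its 3'UTR. SLC7A5, the large neutral amino acid carrier that pairs with SLC3A2, had only -0.08 and 0.77, both in its 3'UTR. SLC6A9, a glycine carrier, had -0.07 at its only peak, and SLC6A6, a taurine carrier, had 1.65 at a peak that matches miR-19, miR-130 and miR-340.

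The 5 genes with the most peaks, all carriers in the plasma membrane, held 86 of the 319 peaks, and each had peaks on both sides of 0. SLC1A5, the main glutamine carrier of many dividing cells, had 20 peaks from -1.42 to 1.46 with a median of 0.65, and 16 were above 0. All 4 of its 3'UTR and all 4 of its 5'UTR peaks were above 0, while the CDS peaks ran from -1.42 to 1.46. SLC16A1, the lactate carrier MCT1, had 18 peaks from -0.84 to 1.66 with a median of 0.91, and its 4 negative peaks all lay in CDS. SLC6A8, the creatine carrier, had 18 peaks from -0.86 to 1.82, and its median of 0.10 was the lowest of the 5.

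SLC7A1 encodes the arginine carrier CAT1, whose mRNA is a textbook example of relief from miRNA repression in stressed liver cells. Its 16 peaks in 293S cells included 15 in the 3'UTR, which ran from -1.94 to 2.48 with a median of 0.70, and 11 of these 15 were above 0. The 3 peaks nearest the 3' end had 2.32, 2.32 and 2.48, and the peak just before them had -1.17. The first 2 of the 3 high peaks (chr13:30084202-30084220 and chr13:30084183-30084214) overlap and carry identical values, so they are 1 measurement. None of the 3 has a listed seed match. SLC38A2, a sodium-coupled neutral amino acid carrier, had 14 peaks from -1.38 to 1.89 with a median of 0.49. The highest-average peak of SLC38A2 (1.29, seeds of the miR-23 family and miR-28-3p) lay above that median, while 3 of its other peaks were higher still, at 1.43, 1.77 and 1.89. The related SLC38A1 had 5 3'UTR peaks, all above 0, from 0.29 to 2.34.

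**Figure D2:**
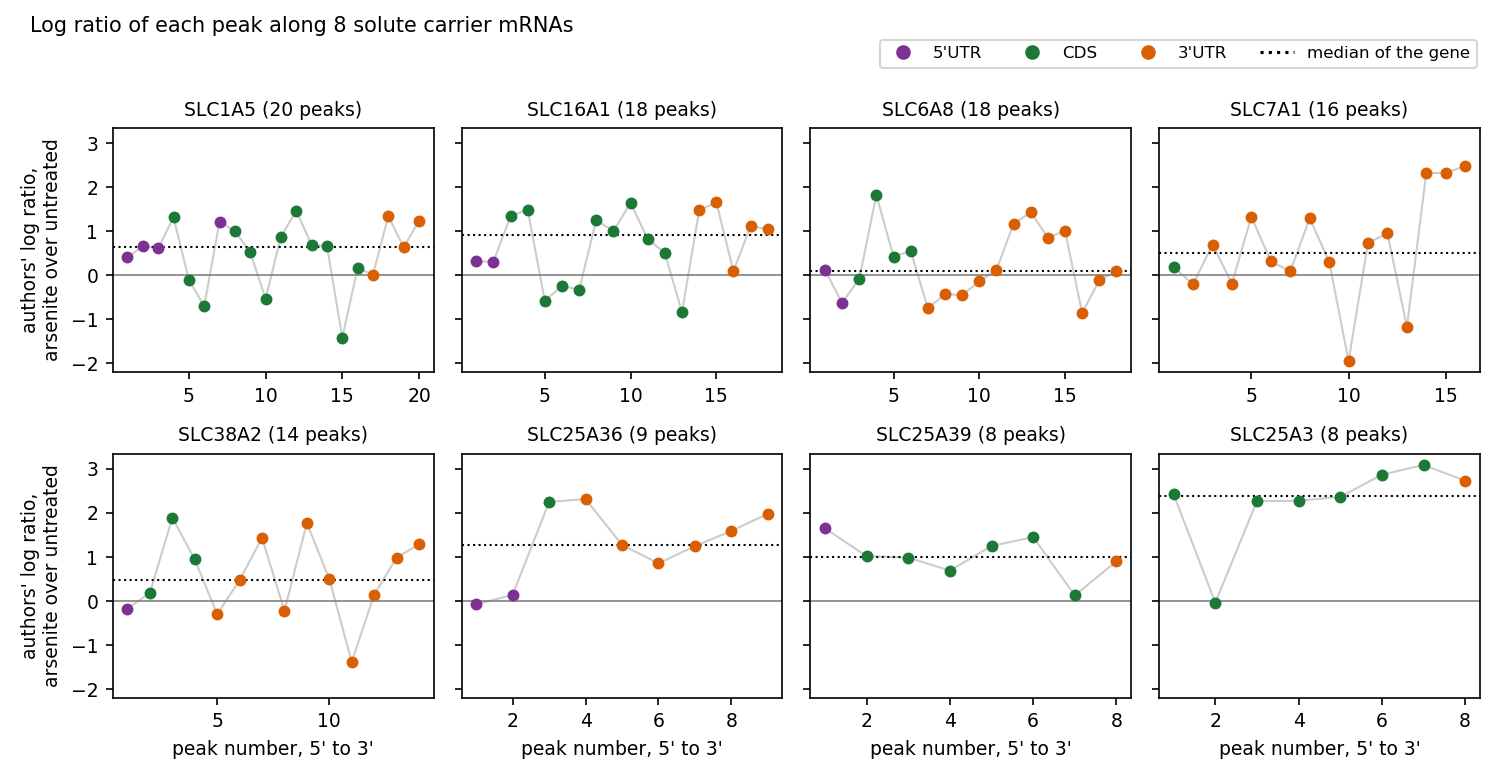
Authors' log ratio (arsenite over untreated, log base not stated) of each peak, numbered from 5' to 3' by position and coloured by annotated region, in the 5 solute carrier genes with the most peaks and the 3 SLC25 genes with the most peaks. Dotted lines are gene medians; SLC25A3 sits near 2.39 except for 1 peak at -0.03, and the 3 last peaks of SLC7A1 lie between 2.32 and 2.48.

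Log ratios differed among peaks of the same mRNA. Over the 39 genes with 3 or more peaks, the median standard deviation among the peaks of a gene was 0.84. The standard deviation of the gene medians was 0.77, but these medians carry part of the scatter among peaks. The 2 values are therefore unlike measures, and neither was computed over all genes. Of 56 genes with at least 2 peaks, 24 had peaks on both sides of 0, 30 had all peaks above 0 and 2 had all below. These counts were not computed over all genes of the table, where 70.3% of peaks were above 0. They therefore do not set solute carrier mRNAs apart. A value from 1 peak, as in the 43 genes that had only 1, describes that site and not the transcript.

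Metal carriers were of interest because arsenite is a metalloid that engages metal-responsive genes. All 14 measured members of the arsenic and metal list (20 listed) were above 0 at their highest-average peak, against 79.9% of all genes, and the median of 0.93 lay below that of all genes. The list was chosen with earlier results known, and it left out the zinc carriers that turned out negative. Over all 12 measured zinc carriers 9 were above 0, with a median of 1.13, close to that of all genes.

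Among zinc carriers, the SLC30 family moves zinc out of the cytosol into vesicles or out of the cell, and the SLC39 family moves it in. The 5 SLC30 genes had a median of 1.67. SLC30A7 and SLC30A6, which load zinc into the Golgi apparatus, had 2.69 at a 3'UTR peak with a miR-19 seed (chr1:101446167-101446202) and 2.74 at a 3'UTR peak with none. SLC30A5, the partner of SLC30A6, had 1.67, and SLC30A1, the zinc-induced exporter of the plasma membrane, 1.58. SLC30A3, known from synaptic vesicles, was the exception at -0.49. The 7 SLC39 genes had a median of 0.54, from -1.59 for SLC39A13 and -0.60 for SLC39A3 to 1.39 for SLC39A4 and 1.82 for SLC39A10. The ranges of the 2 families overlapped, and their difference was not tested. SLC39A1, SLC39A14 and SLC39A7 had 0.51, 0.54 and 0.87, and all 7 peaks of SLC39A1 were above 0, from 0.51 to 1.20.

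The 4 carriers of iron, heme and copper were above 0, as were 79.9% of all genes, but their median of 0.64 was below the 1.10 of all genes, which only 1 of them exceeded. SLC31A1, the copper importer, had 2.14 and 2.38 at its 2 peaks. SLC11A2, the iron importer DMT1, had 0.15 at its highest-average peak but 0.58, 2.47 and 1.50 at its other 3'UTR peaks, the highest at a miR-25/92 seed. SLC40A1, the iron exporter ferroportin, had 0.65 at a miR-17 seed, and the heme carrier SLC48A1 had 0.63. The phosphate carriers SLC20A1 and SLC20A2, whose substrate is mimicked by arsenate, had 0.74 and 0.94.

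Sugar carriers had the lowest class median, 0.46, with 6 of 10 genes above 0 (60.0%, against 79.9% of all genes). Both the median and the count include SLC2A4RG, which is not a carrier, and SLC5A6, a vitamin carrier. Neither was computed without these genes. SLC2A1, the glucose carrier GLUT1, reported to carry arsenite, had 2.23 at a 3'UTR peak with miR-19, miR-130 and miR-193 seeds (chr1:43392055-43392109) and 1.00 at its other peak. SLC2A8, a glucose carrier of internal membranes, had 0.79, 0.75 and -2.87 at CDS peaks from 5' to 3' and -1.39 at its 3'UTR peak. The lowest value of all solute carrier peaks, at chr9:130169456-130169499, therefore lay in an mRNA whose upstream peaks were above 0. SLC2A6, another glucose carrier of internal membranes, had -1.53 and SLC45A4 -0.94, each with 1 peak, and neither had a listed seed. In SLC2A4RG, the transcription factor, the highest-average peak had 2.13, whereas 8 of its 11 peaks were below 0 and its median was -0.40.

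The monocarboxylate family SLC16 was above 0 in 6 of 6 genes, too few to set apart from the 79.9% of all genes, with a median of 1.55 beside 1.10 over all genes. SLC16A7, the pyruvate and lactate carrier MCT2, had 3.73, the highest value of all 319 peaks, at a 3'UTR peak that matches miR-17 and miR-181 seeds (chr12:60176747-60176775). It was the only peak of SLC16A7. SLC16A9 had 1.92 and 1.93, the former at a peak with miR-17 and miR-340 seeds, and SLC16A1 1.64 at its highest-average peak.

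The nucleotide sugar carriers of the SLC35 family feed glycosylation in the Golgi apparatus and the endoplasmic reticulum, and their genes spread widely. Of 12 genes 7 were above 0 (58.3%, against 79.9% of all genes), with a median of 1.15 beside 1.10. SLC35F5, whose substrate is less certain, had 3.24 at a CDS peak with a miR-130 seed (chr2:114480722-114480752), and its other CDS peaks had 2.26, 1.99 and 0.15. SLC35B4, a UDP-xylose and UDP-N-acetylglucosamine carrier, had 2.68 at a 3'UTR peak with a miR-30 seed, and 1.56 at a CDS peak with a miR-19 seed. SLC35F1 had 2.33 at its only peak, with a miR-130 seed. At the other end, SLC35G2 had -1.29 at a 5'UTR peak with a miR-331 seed, and SLC35B2, which brings the sulfate donor PAPS into the Golgi apparatus, had -0.52.

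Among the 9 proton and bicarbonate exchangers 8 were above 0 (88.9%, against 79.9% of all genes). Their median of 0.61 was nevertheless below the 1.10 of all genes, which 3 of the 9 exceeded. SLC4A7, a sodium bicarbonate cotransporter, had 2.89, 1.32, 0.89 and 1.63 at its 4 3'UTR peaks from 5' to 3', whereas SLC4A2, an anion exchanger, had -1.22 at its only peak. SLC26A2, a sulfate carrier, had 1.88. In the SLC12 family of cation-chloride cotransporters, the potassium chloride carrier SLC12A7 had 2.07 at a peak with miR-19 and miR-130 seeds, SLC12A4 had 0.91, and SLC12A9 had -0.21.

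Smaller classes held a few high peaks. SLC19A2, the thiamine carrier, had 2.14, 2.96, 1.60, 1.55 and 1.42 at its 5 CDS peaks from 5' to 3', all above the median of all genes, and 4 of the 5 had a listed seed. The folate carrier SLC19A1 had 0.36 at its highest-average peak, -2.19 at its 5'UTR peak and 1.23 and 0.90 at its 3'UTR peaks. The ascorbate carrier SLC23A2 had 0.98. SLC29A1 and SLC29A2, the equilibrative nucleoside carriers, had 2.58 (a CDS peak with let-7, miR-103 and miR-183 seeds) and -0.08 at their highest-average peaks. The other peaks of SLC29A1 had 0.85, 0.07 and 1.01, and those of SLC29A2 had 0.36 and -0.96, so their ranges overlapped. SLC17A5, which exports sialic acid from lysosomes, had 2.52, 2.99 and 1.92 with no seed match at any peak. SLC22A23 had 2.12 at a miR-17 seed and SLC22A5, a carnitine carrier, 0.36. Among 5 lipid-related carriers 4 were above 0 (80%, against 79.9% of all genes). Their median was 0.65, and 0 of the 5 exceeded the median of all genes, 1.10. SLC44A1 (choline), SLC27A3 and SLC27A4 (fatty acids) and SLC33A1 (acetyl-CoA) had 1.00, 0.68, 0.65 and 0.58, and SLC44A5 had -0.28.

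Seed matches were met at 114 of 319 solute carrier peaks (35.7%), beside 31.5% of all peaks. Of the 114 peaks with a match 100 were above 0 (87.7%), against 79.2% of all peaks with a match. Of the 205 without a match 146 were above 0 (71.2%), against 66.2% of all such peaks. The medians with and without a match were 0.95 and 0.66 in solute carriers and 1.06 and 0.48 over all peaks. The 2 solute carrier medians thus lay closer together than those of the whole table, although more of the peaks with a match were above 0, and neither contrast was tested.

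For the 39 CDS peaks with a match the median was 1.01, and 36 of them were above 0, while the 82 without had a median of 0.64, and 56 were above 0. Over all CDS peaks of the table the medians were 0.96 with a match (77.6% above 0) and 0.45 without (65.1% above 0). In the 3'UTR the medians were 0.98 over 68 peaks and 0.86 over 101, and over all 3'UTR peaks of the table they were 1.20 and 0.68. In 40 pairs of medians from the same gene and region, peaks with a match were higher in 25, by a median difference of 0.27. Over 2654 such pairs of all genes they were higher in 60.2%, by 0.25.

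**Figure D3:**
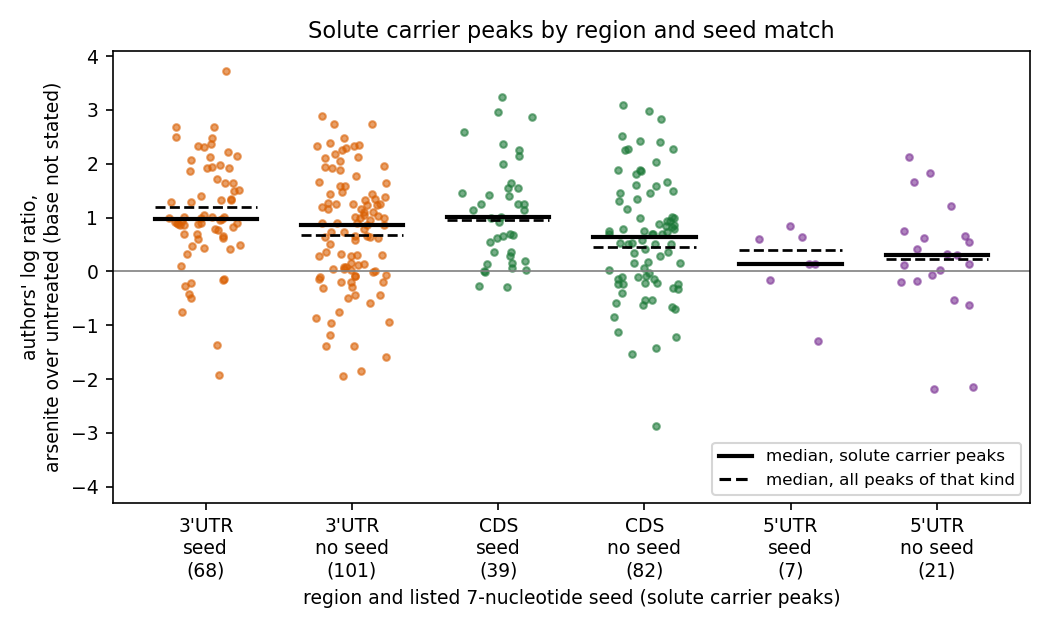
Authors' log ratio (arsenite over untreated, log base not stated) of solute carrier peaks by annotated region and by the presence of a listed 7-nucleotide seed match. Each point is 1 peak (numbers in brackets), solid bars are their medians and dashed bars the medians of all peaks of that kind; 5'UTR peaks sit lowest, and 36 of 39 CDS peaks with a seed lie above 0.

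By region, 169 solute carrier peaks (53.0%) lay in the 3'UTR, 121 in CDS, 28 in the 5'UTR and 1 in a noncoding exon. In the 3'UTR 135 were above 0 (79.9%, against 76.2% of all 3'UTR peaks), with a median of 0.91. In CDS 92 were above 0 (76.0%, against 68.4%), with a median of 0.70, and in the 5'UTR 19 of 28 (67.9%, against 60.8%), with a median of 0.22. The order of the 3 regions was that of the whole table, where the medians were 0.88, 0.58 and 0.25. Within genes, the 3'UTR median was higher than the 5'UTR median in 10 of 11 solute carrier genes with both, against 69.4% of 814 genes in the whole table. It was higher than the CDS median in 13 of 25 (52.0%), against 60.2% of 1862 genes.

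The miR-15/16 seed was the most frequent, at 21 peaks in 18 genes, 20 of them above 0, with a median of 0.70 beside 0.92 over all peaks with that seed. Of all peaks with any listed seed 79.2% were above 0. That share was not computed for single families, so these small counts cannot be set against their own background. The miR-19 and miR-130 seeds had 10 peaks each, all above 0, with medians of 1.45 and 1.33, both below the 1.57 and 1.55 over all peaks with these seeds. The 8 peaks with a miR-17 seed had a median of 1.92, beside 1.67 over all peaks with that seed, from -1.92 at SLC2A4RG to 3.73 at SLC16A7. Without SLC2A4RG every one of these miR-17 values was above 0.

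Other families had fewer peaks, and their shares above 0 over all peaks with the same seed were not computed either. The let-7 seed was met at 8 peaks, 7 above 0, with a median of 1.13 beside 1.42 over all its peaks, and miR-30 at 5, all above 0, with 1.63 beside 1.60. The 5 miR-196 peaks, of which 2 also matched let-7, were all above 0 too, with a median of 1.34 beside 1.39. The miR-25/92 seed had a median of 0.92 over 7 peaks, where all 430 peaks of the table with that seed had 1.72. The 7 values ran from -0.22 at SLC38A2 to 2.47 at SLC11A2, and this difference was not tested.

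The miRNAs of these families did not pass the authors' test on Ago2 itself. The adjusted p from DESeq in the authors' deposited table was 1 for each of the 11 miRNAs shown above. None of its 1213 miRNA entries had a lower adjusted p, so this does not set these miRNAs apart. The log2 fold change in the authors' deposited table was largest for miR-301a-3p, at 0.30 (means of 33861 untreated and 41800 with arsenite, p = 0.16, adjusted p = 1). It was -0.13 for miR-19b-3p, -0.02 for miR-17-5p, 0.02 for miR-16-5p and 0.17 for miR-92a-3p in the authors' deposited table. A miss of the threshold does not show that these miRNAs were unchanged.

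Other transport genes that do not carry an SLC name were taken from a list of pumps, channels, ABC transporters and regulators of carriers, chosen with earlier results known. Of 83 listed genes 46 were in the table, and 38 of these were above 0 (82.6%, against 79.9% of all genes), with a median of 1.01. SFXN1, a mitochondrial serine carrier outside the SLC25 family, had 3.91 at its highest-average peak but a median of 1.24 over 6 peaks. ATP2B1, a calcium pump of the plasma membrane, had 3.01 with a median of 0.64 over 5 peaks, and ATP13A3, a P-type ATPase, 2.75 with a median of 1.76 over 19 peaks. MFSD11 and MFSD5, members of the major facilitator superfamily, had 2.94 and 2.75 at their only peaks, and ARRDC4, an arrestin-like regulator of glucose uptake, had 2.70 with a median of 1.06 over 7 peaks. These 6 were the largest by absolute value, and the whole list ran from -1.92 to 3.91, where the solute carrier genes ran from -2.87 to 3.73.

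Low log ratios were more frequent among carriers of high log average. Among the 33 genes with the highest log averages 22 were above 0 (66.7%), with a median of 0.63. Among the 33 with the lowest averages 27 were (81.8%), with a median of 1.25. Of the 33 between them 28 were (84.8%), with a median of 0.98. Over all genes the share was 79.9%, and it was not computed within ranges of log average. Spearman's rho between log average and log ratio was -0.34 over the 99 genes and -0.07 over all genes of the table. It is given as a description, since both values of a gene come from the same libraries.

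**Figure D4:**
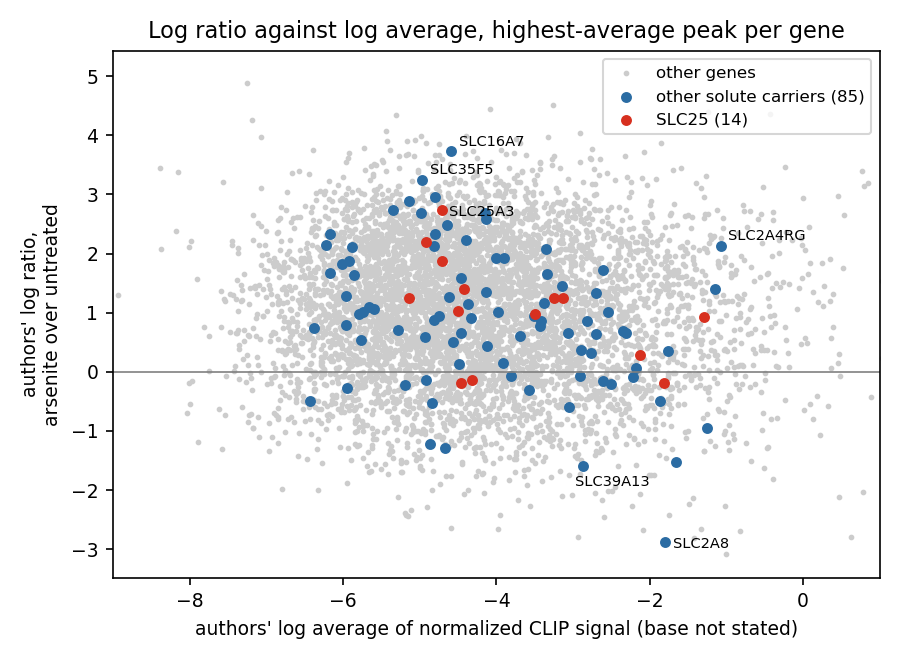
Authors' log ratio (arsenite over untreated) against the authors' log average of normalized CLIP signal (log bases not stated) at the highest-average peak of each gene, with SLC25 in red, other solute carriers in blue and all other genes in grey; 13 genes outside log averages of -9 to 1 are not drawn. SLC16A7 (3.73) and SLC2A8 (-2.87) are the highest and lowest solute carriers. Of the 33 solute carrier genes with the highest averages 11 lie below 0, a share not computed for all genes of like average.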

How the data were processed

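The mRNA CLIP peak table and the LO band miRNA table were used as deposited, and 0 columns hold values of single samples, so the replicate tests planned for the case of replicate values could not be run. Build hg19 and the tools TopHat, DESeq and Bowtie 0.12.8 are listed, without their roles, in the submitters' processing notes. How peaks were called, filtered and normalized is not given in the sources used here. Both CLIP values per peak are treated as scores, since per the file headers they are a log average and a log ratio with no stated base. Per the file headers, the miRNA table gives signal means (read counts divided by size factors, averaged by the authors), their ratio (fold), its log2 value and p-values with adjusted p-values deposited by the authors, under miRBase 18 names.

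Peaks were selected, counted and summarised in Python 3.11.15 with pandas 2.3.3 and SciPy 1.17.1. Intervals for shares are Wilson 95% intervals, and those for medians come from binomial order statistics. Both were tested on simulated independent values, as many as there were solute carrier peaks. That test covers neither dependence among peaks of a gene nor small groups such as the SLC25 genes. No filter was applied to the peaks. Members, lists, classes and rules were chosen with earlier results of these data known. Named genes were the 8 highest and 8 lowest log ratios among highest-average peaks in the upper 75% of log averages (97 of 99 genes), the 5 genes with most peaks, up to 3 genes per class (6 in SLC25) by absolute log ratio, and all measured members of the ATF4 and metal lists, with 6 of the other transport list. Other genes named (SLC12A9, SLC25A10, SLC25A11, SLC25A32, SLC25A36, SLC30A3, SLC39A4, SLC33A1 and SLC44A5) were chosen after their values were seen. Classes follow the family number, so SLC5A6, a vitamin carrier, is counted with sugars and SLC16A10, an aromatic amino acid carrier, with monocarboxylates. RNA-seq values were not analysed here. Some genes that the naming rule selects are not reported here.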

Additional observations from a re-analysis of the deposited data

How the results depend on the processing

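Of 68 recomputed values, 59 stayed within the 95% interval of the reported value. Among the medians 0 changed sign, a check that does not apply to shares. The 9 values outside their interval all came from centring the log ratios on the median of all peaks (0.65). Centring by construction lowers every log ratio by that amount. The share of solute carrier peaks above 0 was then 56.4% and that of genes 63.6%. Centring sets the median of all peaks to 0, and the share of all genes above 0 after it was not computed. Since every value moved alike, the solute carrier gene median stayed below that of all genes. The centred solute carrier medians were 0.13 over peaks, 0.30 over genes, 0.25 over genes outside SLC25, 0.25 in the 3'UTR, 0.046 in CDS, 0.29 with a seed match and 0.0042 without. All 10 values stayed within their intervals under each of a filter to the upper 75% of log averages, leaving out overlapping peaks, leaving out SLC2A4RG, leaving out SLC1A5 and, added after the data had been seen, keeping 1 of each set of peaks with identical values. The 4 gene values did so with the median over peaks and with the highest-average 3'UTR peak, although the latter put the SLC25 median (0.94) below that of the others (1.00). The interval of the SLC25 median, -0.13 to 1.88 over 14 genes, is too wide to place this family above or below the rest. No paired analysis was possible because the tables hold 1 value for all replicates together, and leaving out single replicates was not run for the same reason.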
